A study of Mus musculus with 6 samples.

Results

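The MICAL and Shroom families are regulators of the actin cytoskeleton, and their 9 genes in the table (Mical1, Mical2, Mical3, Micall1, Micall2, Shroom1, Shroom2, Shroom3 and Shroom4) are described here out of 17313 genes. Mical3 and Shroom4 were chosen by their measured values, which separated the libraries of the groups tightly in the comparison of KO with WT, so their difference between the groups is given as a description without a test. The other 7 were taken by family name as their paralogues. RNA-seq of poly(A) RNA was made from macrophages grown in culture from bone marrow of C57BL/6 mice injected into a vein with LLC1, a line of Lewis lung carcinoma cells. In every group the Hdac2 gene was flanked by loxP sites and marrow was collected on day 20. The 3 libraries of mice with Hdac2fl/fl alone are called WT after their genotype label, and the 3 libraries of mice that also carried LysMCre, a Cre recombinase expressed from the lysozyme gene Lyz2 in myeloid cells, are called KO. The labels do not give sex. Ages are not given in the sources used here, nor whether the libraries of a group stem from different mice. The p-values therefore reflect the variation among these libraries, part of which may be technical.

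MICAL proteins are flavin monooxygenases that oxidise methionine residues of actin and so take filaments apart, and MICAL-like proteins (Micall1 and Micall2) share the other domains without the enzyme and act with Rab GTPases on membrane traffic. Shroom proteins bind actin and bring about its contraction by non-muscle myosin II, a process known best from epithelial sheets that bend. Macrophages depend on actin turnover for movement and engulfment, whereas Shroom genes are known mainly from epithelia, endothelium and neurons.

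The table holds whole numbers that look like counts per gene scaled per library and rounded, called scaled counts here, with totals from 5704313 to 5837994. Hdac2, the targeted gene, stood at 534, 482 and 518 for WT and at 392, 387 and 375 for KO, lower in each KO library but far from absent. The deleted exons are not given in the sources used here, and other cells than myeloid ones keep the gene. The source of the Hdac2 values left in KO was not tested. The macrophage markers Adgre1, Cd68 and Csf1r had means of 2327, 1115 and 2756 for WT and 2025, 985 and 2591 for KO. The summed value of all 10 macrophage markers ran from 13904 to 14720 for WT and from 13134 to 13533 for KO. Of the 10, 2 had a higher mean in KO, Mertk (952 for WT and 1076 for KO) and Mrc1 (2720 and 2832). The sum includes Lyz2, the gene from which Cre is expressed in KO, at 1089 for WT and 942 for KO. The WT libraries differed among themselves in ways that genotype does not explain. Xist, expressed from an inactive X chromosome, stood at 5243, 0 and 74 for WT 1, WT 2 and WT 3 and at 4726, 4997 and 3298 for KO, and the Y-linked Ddx3y at 44, 308 and 745 and at 10, 0 and 0. The summed value of 14 fibroblast and stroma markers was 23104 for WT 1, 10986 and 11375 for WT 2 and WT 3, and 28441, 26574 and 23758 in the KO libraries. WT 1 therefore lay with the KO libraries in Xist and near them in the stroma markers, and in Ddx3y between KO and the other WT libraries. Results are also given without WT 1 and against WT 1 alone.

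The start regions of 3 members are shown because the study's title names SP1, a transcription factor that binds GC boxes, and because the results turn on Mical3 and on Shroom4 beside its paralogue Shroom3. RefSeq sequences (GRCm38.p6, the same coordinates as mm10) were searched for 7 of the 9 members. Shroom1 has no entry, and the window of Mical1 is not reported here. Each line runs 5′ to 3′ on the gene's strand, from 250 bases before the annotated start to 20 after it, and capitals mark the GC box GGGCGG or its complement CCGCCC. The windows lie at chr6:121131003-121131272 (minus strand) for Mical3, chrX:6399782-6400051 (plus) for Shroom4 and chr5:92809132-92809401 (plus) for Shroom3.
Mical3: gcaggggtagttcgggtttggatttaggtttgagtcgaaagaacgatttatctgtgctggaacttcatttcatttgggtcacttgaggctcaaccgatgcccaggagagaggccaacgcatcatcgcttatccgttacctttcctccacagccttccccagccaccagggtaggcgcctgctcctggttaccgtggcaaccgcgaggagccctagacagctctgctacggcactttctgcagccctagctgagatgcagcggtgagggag
Shroom4: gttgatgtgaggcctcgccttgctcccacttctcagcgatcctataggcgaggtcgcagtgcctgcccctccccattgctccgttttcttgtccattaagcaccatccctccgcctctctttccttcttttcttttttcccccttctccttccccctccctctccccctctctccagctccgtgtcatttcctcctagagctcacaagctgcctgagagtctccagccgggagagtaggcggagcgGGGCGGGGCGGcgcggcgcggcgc
Shroom3: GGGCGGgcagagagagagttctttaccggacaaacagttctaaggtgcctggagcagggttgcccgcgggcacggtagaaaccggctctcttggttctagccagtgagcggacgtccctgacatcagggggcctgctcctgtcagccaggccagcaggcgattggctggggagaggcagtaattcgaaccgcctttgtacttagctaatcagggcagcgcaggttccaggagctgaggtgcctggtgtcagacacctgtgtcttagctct

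In windows of 300 bases (250 before and 50 after the start), a GC box in either orientation was found in 35.7% of 32851 RefSeq start regions. The outermost start of Mical3 held none, its second start held 1, and the window of Mical2 held 0. Micall1 held 6 and Micall2 held 3. The outermost windows of Shroom2, Shroom3 and Shroom4 held 1, 1 and 2, and the pair in Shroom4 shares 1 base and lies across the annotated start. RefSeq lists 2 starts for Mical3, 4 for Shroom2, 2 for Shroom3 and 3 for Shroom4, and gene totals do not say which of them was used. The CArG box, the site of serum response factor (SRF), was in 1.6% of all windows and in none of the windows searched for 7 members. These are letter matches and not measured binding.

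Mical3 (ENSMUSG00000051586, chr6:120931707-121130999, minus strand, mm10) encodes the MICAL enzyme that acts with Rab8 in the docking of secretory vesicles and in the last step of cell division. Its scaled counts were 328, 326 and 317 for the WT samples and 465, 463 and 452 for the KO samples. The groups lay far apart for their spread, with 324 ± 5.86 for WT and 460 ± 7 for KO (SD, n = 3 each), a coefficient of variation of 1.81% and 1.52%. The KO mean was 1.42 times the WT mean, and the log2 difference was 0.51 ± 0.048 (SE). This separation is what Mical3 was chosen for, and it carries no test. The KO mean was 1.40 times the value of WT 1. Against WT 1 alone the log2 difference was 0.49, compared with 0.52 without WT 1.

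**Figure D1:**
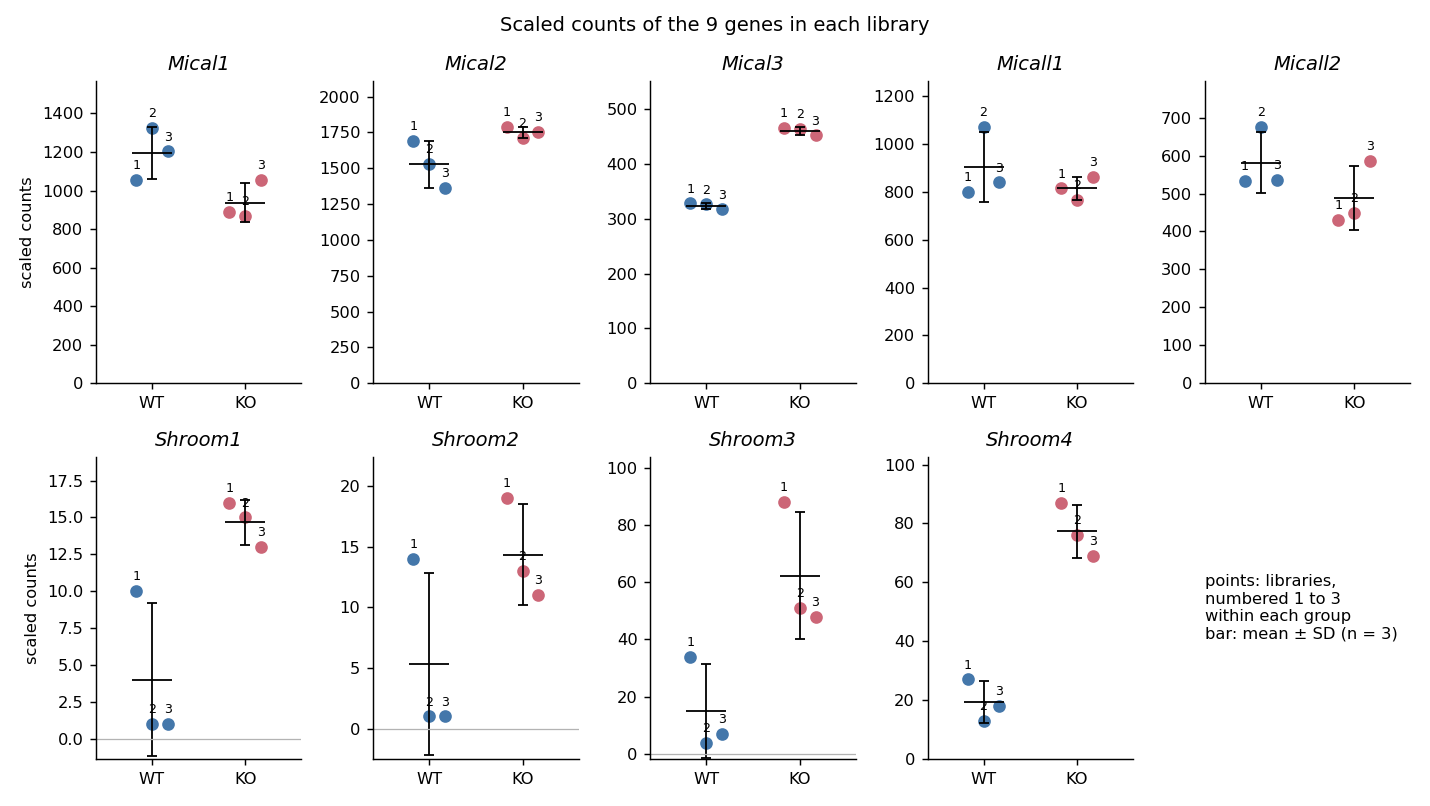
Scaled counts (y axis, from 0 except where an SD bar reaches below it) of the 9 genes in 3 WT and 3 KO libraries; points are libraries with their number, and bars are the mean ± SD (n = 3). Mical3 lies at 317 to 328 for WT and 452 to 465 for KO, while in Shroom1, Shroom2 and Shroom3 the library WT 1 lies far above WT 2 and WT 3.

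The other MICAL enzymes were more abundant per length, and their groups lay closer together. Mical1 (ENSMUSG00000019823, chr10:41476314-41487032, plus strand), which acts below plexin receptors, stood at 1057, 1324 and 1203 for WT and at 889, 868 and 1056 for KO. KO was lower without overlap, but WT 1 at 1057 and KO 3 at 1056 were next to each other. The log2 difference was -0.35 ± 0.11 (SE), with a limma adjusted p of 0.158 over all 13260 tested genes. Smpd2, on the opposite strand, overlaps the end of Mical1 and stood at 206 ± 20 for WT and 190 ± 18.9 for KO (SD, n = 3), and the counting by strand is not stated.

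Mical2 (ENSMUSG00000038244, chr7:112225856-112413106, plus strand), a mainly nuclear member that promotes transcription by SRF, stood at 1689, 1532 and 1363 for WT and at 1786, 1712 and 1752 for KO. KO was slightly higher without overlap, again with WT 1 next to KO, and the log2 difference was 0.20 ± 0.082 (limma adjusted p = 0.204). RefSeq places a separate gene, Micalcl, at chr7:112368308-112413104 within the row counted as Mical2, and no row carries that name, so reads of both may be in this value.

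The MICAL-like genes overlapped between the groups. Micall1 (ENSMUSG00000033039, chr15:79108898-79136900, plus strand), which works with Ehd1 on recycling endosomes, stood at 799, 1071 and 840 for WT and at 815, 765 and 864 for KO. Micall2 (ENSMUSG00000036718, chr5:139706696-139736336, minus strand), a Rab8 and Rab13 effector at cell junctions, stood at 534, 675 and 535 for WT and at 431, 449 and 585 for KO. Their log2 differences were -0.14 ± 0.12 and -0.26 ± 0.15 (SE), with limma adjusted p-values of 0.513 and 0.336. WT 2 was the highest library for both.

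Mical3 was thus the lowest of the 5 by exonic length. Over 22950 exonic bases it gave 14.1 scaled counts per kb in WT and 20.0 for KO. Mical1 gave 198 and 155 per kb, Micall2 140 and 118, Micall1 108 and 97.7, and Mical2 100.4 and 115. The levels of Mical2 and Micall1 overlapped across libraries, at 89.6 to 117 and 91.7 to 128 per kb, and those of Micall2 (104 to 163 per kb) overlapped both of them and Mical1 (144 to 219). The share of Mical3 in the per-kb sum of the 3 MICAL enzymes was 4.76%, 4.26% and 4.57% for WT and 7.12%, 7.30% and 6.36% for KO. The summed value of the 5 genes overlapped between the groups, from 4258 to 4928 for WT and from 4257 to 4709 for KO.

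**Figure D2:**
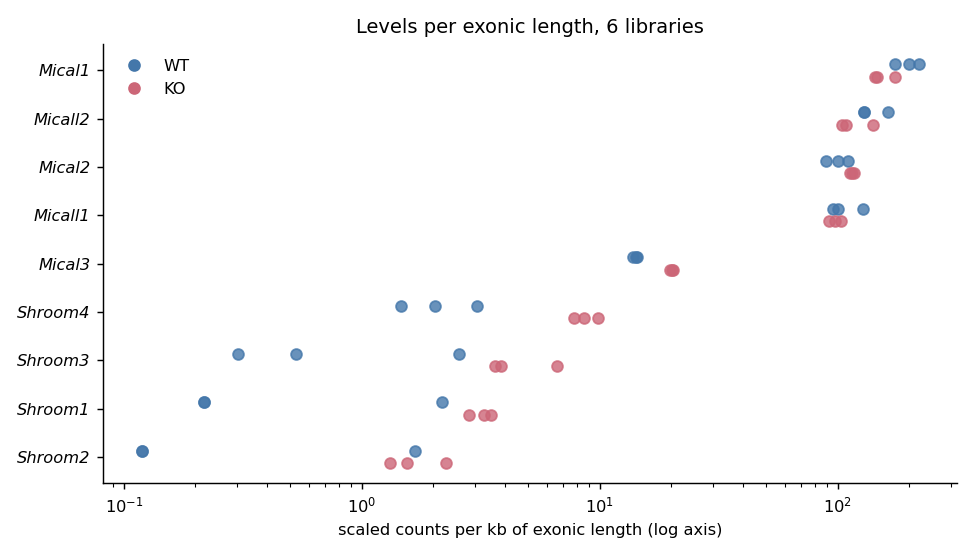
Scaled counts per kb of exonic length (x axis, log scale) for the 9 genes in the 6 libraries, ordered by mean level. The MICAL genes other than Mical3 lie between 89.6 and 219 per kb, Mical3 between 13.8 and 20.3, and the Shroom genes below 10.

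All 4 Shroom genes were at low levels, with 0.637 to 2.18 scaled counts per kb as the WT mean and 1.71 to 8.71 as the KO mean. Their sum was 85, 19 and 27 scaled counts in WT and 210, 155 and 141 for KO, the highest WT value again being that of WT 1.

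Shroom4 (ENSMUSG00000068270, chrX:6399854-6637448, plus strand), a family member known from neurons, had the highest Shroom level per length. It stood at 27, 13 and 18 for WT and at 87, 76 and 69 for KO, 19.3 ± 7.09 and 77.3 ± 9.07 (SD, n = 3). No KO library fell within the WT range, and the KO average was 4 times the WT mean and 2.86 times the value of WT 1. The log2 difference was 2.0 ± 0.28 (SE), 2.26 without WT 1 and 1.48 against WT 1 alone. As for Mical3, the separation was the reason for the choice and has no test. Shroom4 lies on the X chromosome, and Xist was high in WT 1 and in KO. Xist aside, the 436 tested X-linked genes, which include Shroom2 and Shroom4, had a median log2 difference of 0.024 against -0.0046 over all tested genes. A difference above 1 was seen in 11.5% of them and in 9.31% of all tested genes. The part of the split in Xist in the values of Shroom4 was not tested.

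Shroom3 (ENSMUSG00000029381, chr5:92683435-92965318, plus strand), which drives apical constriction when the neural tube closes, stood at 34, 4 and 7 for WT and at 88, 51 and 48 for KO. The groups did not overlap, although WT 1 at 34 lay nearer KO 3 at 48 than WT 3 at 7. The log2 difference was 2.45 ± 0.74 (limma adjusted p = 0.158). The RefSeq start nearest to the 5′ end in the table lies 125947 bases inside the gene as deposited.

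Shroom1 (ENSMUSG00000018387, chr11:53457205-53467766, plus strand), an actin-binding member, stood at 10, 1 and 1 for WT and at 16, 15 and 13 for KO, without overlap. Shroom2 (ENSMUSG00000045180, chrX:152609509-152769465, minus strand), known from endothelium and pigment granules, stood at 14, 1 and 1 for WT and at 19, 13 and 11 for KO. Shroom2 overlapped, since WT 1 at 14 was above KO 2 and KO 3. The log2 differences were 2.15 ± 0.73 and 1.94 ± 0.85 (limma adjusted p = 0.164 and 0.227). With a pseudocount of 5 in place of 1 they were 1.27 and 1.11, and with 0.5 they were 2.40 and 2.18. Shroom1, Shroom2 and Shroom3 passed the filter on low values (at least 10 in at least 3 libraries) through WT 1 and the KO libraries, while WT 2 and WT 3 were below 10 in all 3 genes. Genes this low can pass only where some libraries are high, so that they passed supports nothing.

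**Figure D3:**
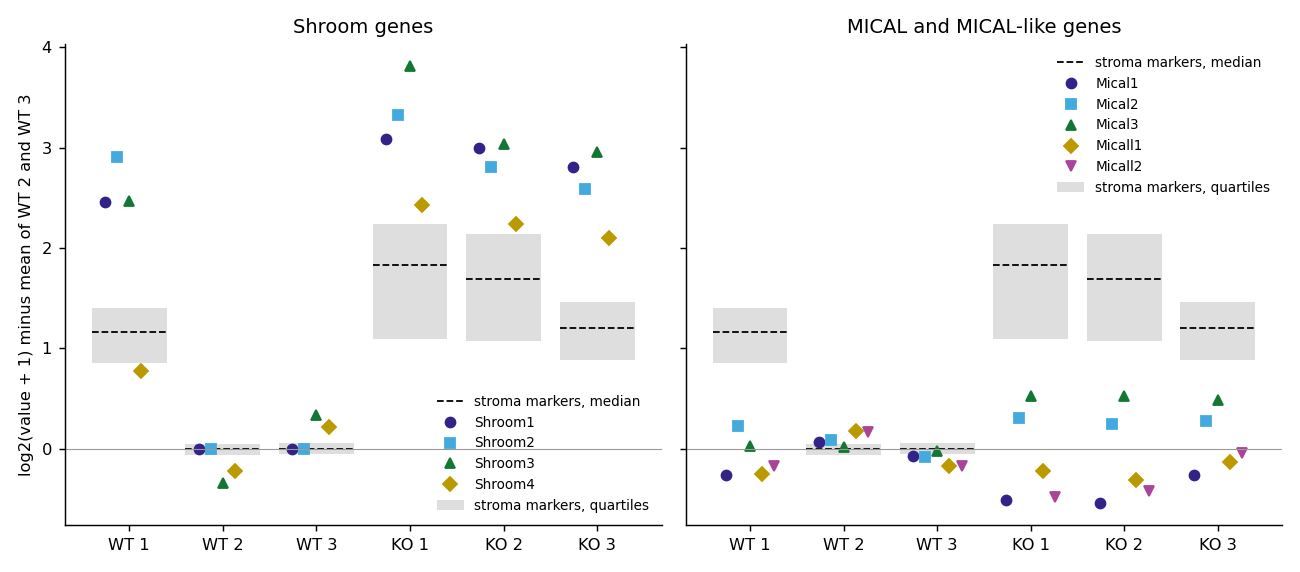
log2(value + 1) in each library minus the mean of WT 2 and WT 3 (y axis) for the Shroom genes (left) and the MICAL genes (right); grey bars span the quartiles and dashed lines give the median of 12 tested fibroblast and stroma markers. In WT 1 the points of Shroom1, Shroom2 and Shroom3 lie near those of the KO libraries, and that of Mical3 lies at the level of WT 2 and WT 3.

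The place of WT 1 differed between the members. On the log2 scale, with the mean of WT 2 and WT 3 set to 0 and the KO mean set to 1, WT 1 lay at 0.83 for Shroom1, 1.00 for Shroom2, 0.755 for Shroom3 and 0.345 for Shroom4. For Mical3 it lay at 0.056. Among the 1639 tested genes with a gap of at least 1 between KO and these WT libraries, the median place was 0.748 (quartiles 0.626 and 0.843). The median was 0.832 for the 10 fibroblast and stroma markers with such a gap. Mical3, with a gap of 0.515, is not among the 1639, so both medians are for genes with wider gaps than its own. A low place is built into the choice of Mical3 and Shroom4 and is no support for either. Of the 14 stroma markers 12 were tested, and all 12 had a higher average in KO, the median of their log2 differences being 1.09. The defining markers were detected in every library. Col1a1 was at 2401 ± 993 for WT and 3878 ± 98.1 for KO, Pdgfrb at 406 ± 357 and 1094 ± 169, and Pdgfra at 45.0 ± 24.0 and 114 ± 49.3 (SD, n = 3). Lum was at 0 for WT 2, WT 3 and KO 3 and Lepr in WT 2 and KO 3. The 9 smooth muscle and pericyte markers summed to 1398 to 3219 for WT and 3710 to 3898 for KO. The 9 endothelial markers in the table summed to 848 to 1492 and 526 to 844, a sum made up mostly of Vwf at 626, 1374 and 790 for WT and 316, 404 and 640 for KO. Of the 5 tested endothelial markers 4 were higher in the KO mean, Pecam1 at 14.0 ± 2.65 and 18.7 ± 0.577 among them, with a median log2 difference of 0.48. Of 8 epithelial markers 2 were in the table, with sums of 2 to 25 and 74 to 101. These sums were mostly Krt19, at 22, 10 and 1 for WT and 95, 73 and 75 for KO. Cdh1 was at 3, 0 and 1 for WT and 6, 1 and 3 for KO, and the defining markers Epcam and Krt18 were not in the table. The part of these cell types in the Shroom values was not tested, and in bulk RNA more cells of a type and more RNA per cell cannot be told apart.

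The test of KO against WT by limma with all 6 libraries called 0 of the 7 paralogues and 0 of the 13260 genes (0% called). At an unadjusted p under 0.05, Mical2, Shroom1 and Shroom3 were higher and Mical1 lower, against 24.4% of all tested genes in either direction (14.7% higher and 9.68% lower). Without overlap between the groups, Mical2, Shroom1 and Shroom3 were higher and Mical1 lower, against 16.1% and 13.4% of the tested genes, 29.5% in all. Without WT 1 the test called 5 of the 7, Mical1 as lower and Mical2, Shroom1, Shroom2 and Shroom3 as higher, with limma adjusted p-values of 0.0379, 0.0424, 0.00445, 0.00746 and 0.00328. The filter on low values read all 6 libraries in both fits. The KO libraries, where Shroom1, Shroom2 and Shroom3 are high, are enough to carry these genes past it. Their p-values and calls in both fits, and the lack of overlap of Shroom1 and Shroom3, therefore follow in part from the filter and support nothing. In the fit without WT 1, 12.8% of all tested genes were called higher and 5.07% lower, 17.8% in all. That fit keeps the WT libraries with little Xist, WT 2 and WT 3, and in it genotype and the Xist split cannot be told apart.

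Against WT 1 alone, assumed to vary like the KO libraries, 0 of the 7 were called, and 0 had an unadjusted p under 0.05 (6.23% of all tested genes, 0% called). The log2 differences were then -0.18 ± 0.13 for Mical1, 0.051 ± 0.060 for Mical2, 0.51 ± 0.32 for Shroom1, -0.0021 ± 0.42 for Shroom2 and 0.80 ± 0.41 for Shroom3 (SE). Beside them Mical3 had 0.49 ± 0.065 and Shroom4 1.48 ± 0.21, values that their choice again favours.

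**Figure D4:**
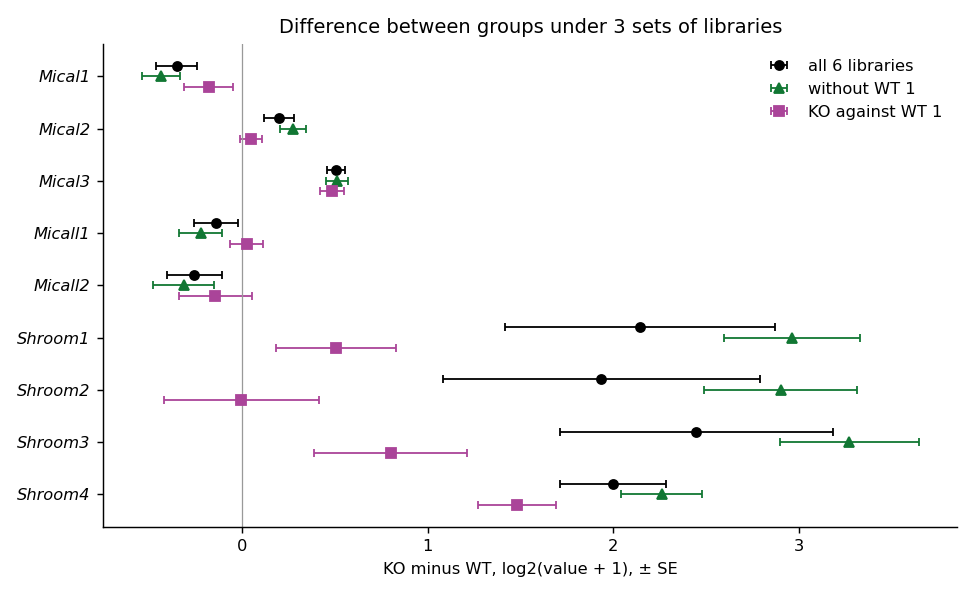
Difference between KO and WT on the log2(value + 1) scale (x axis, ± SE from limma) for the 9 genes with all 6 libraries, without WT 1 and against WT 1 alone. The values of Mical3 stay between 0.49 and 0.52, while those of Shroom2 run from -0.0021 to 2.90.

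Likeness over the 6 libraries was ranked by Pearson r of log2(value + 1) among 11455 other tested genes with a mean of at least 20. Genes with Gm numbers, Rik genes and pseudogenes were not ranked. The genes most like Mical3 were Tulp3 (r = 0.994), Slc39a13 (0.992), Aars2 (0.990), Ltbp4 (0.983) and Ebf2 (0.982). Tulp3, a regulator of traffic to cilia, stood at 249 ± 11.7 for WT and 356 ± 8.89 for KO, and the zinc transporter gene Slc39a13 at 335 ± 7.77 and 413 ± 6.11 (SD, n = 3). Aars2, a mitochondrial alanyl-tRNA synthetase gene, stood at 152 ± 1 and 201 ± 4.51. Ltbp4, a matrix protein gene, was at 15.3 ± 2.52 and 36 ± 1, and the transcription factor gene Ebf2 at 10 ± 2.65 and 37.7 ± 2.08. Those most like Shroom4 were Frs3 (r = 0.998), Abhd14a (0.997), Xrcc5 (0.996), Plekhg3 (0.994) and Myo19 (0.992). Frs3, an adaptor of growth factor receptors, was at 20 ± 2 and 31.3 ± 0.577, Abhd14a at 55.7 ± 6.51 and 90 ± 5.57, and Xrcc5, which encodes the Ku80 DNA repair protein, at 118 ± 7.21 and 157 ± 4.62. Plekhg3 was at 717 ± 44.5 and 874 ± 6.24, and the myosin gene Myo19 at 132 ± 14.2 and 197 ± 6.35. Such high r values rest on 6 points in groups that lie apart and only describe likeness.

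The genes next to Mical3 on chromosome 6 had other patterns. Bid, a cell death gene 14.9 kb away, stood at 509 ± 25 for WT and 495 ± 6.24 for KO, and Pex26, a peroxisome gene 52.7 kb away on the other side, at 208 ± 17 and 176 ± 14.8 (SD, n = 3). The nearest tested gene to Shroom4 was Clcn5, an endosomal chloride transporter gene 516 kb away, at 963 ± 58.8 and 1046 ± 60.8, and no tested gene lay between Shroom4 and the nearer end of the X chromosome. Limma adjusted p-values were 0.697, 0.218 and 0.316.

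Genes that work with MICAL proteins had values on both sides of WT. Of 26 listed partners, all tested, 0 were called by limma, 3 had an unadjusted p under 0.05 in the higher and 5 in the lower direction (14.7% and 9.68% of all tested genes), and the median log2 difference was -0.038 against -0.0046 over all tested genes. Among the plexin receptors, Plxna1 was at 3368 ± 293 for WT and 2919 ± 123 for KO, Plxna2 at 857 ± 72.8 and 861 ± 99.2, Plxna3 at 90.7 ± 30.0 and 134 ± 7.23 and Plxna4 at 449 ± 141 and 254 ± 117 (SD, n = 3, limma adjusted p = 0.183, 0.986, 0.219 and 0.228). Msrb1, the reductase that reverses the oxidation of actin by MICALs, was at 425 ± 9.61 and 427 ± 20.4. Among the Rab GTPases, Rab8a was at 711 ± 34.5 and 678 ± 20.4, Rab35 at 787 ± 74.0 and 726 ± 22.1, Rab8b at 1816 ± 104 and 1539 ± 50.7, and Rab15 at 45.0 ± 41.6 and 108 ± 7.51. The recycling factor Ehd1 was at 775 ± 91.6 and 819 ± 25.1 and Pacsin3, a membrane-bending protein gene, at 32.0 ± 18.2 and 91.3 ± 15.3. Erc1, which encodes ELKS, the vesicle docking partner of MICAL3, was at 704, 705 and 662 for WT and at 787, 780 and 784 for KO. Erc1 was higher in KO without overlap, with a log2 difference of 0.18 ± 0.045 (limma adjusted p = 0.158). Rab8b was lower in KO without overlap, with a log2 difference of -0.24 ± 0.058 (limma adjusted p = 0.158). Of the 26 partners, 4 were higher and 7 lower in KO without overlap, against 16.1% and 13.4% of all tested genes.

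Of 18 listed Shroom partners, 17 were tested and Myh14 has no value here. With limma 0 were called, 4 had an unadjusted p under 0.05 in the higher and 2 in the lower direction (14.7% and 9.68% of all tested genes), and the median log2 difference was -0.020 against -0.0046 over all tested genes. The myosin heavy chain Myh9 was at 4604 ± 241 and 4623 ± 38.6 (SD, n = 3). Myh10, the other main non-muscle myosin, stood at 668, 206 and 262 for WT and at 1298, 1165 and 975 for KO, and the junction gene Tjp1 at 301, 39 and 69 and at 570, 468 and 331. Both were higher in KO without overlap, as were 16.1% of all tested genes, with limma adjusted p-values of 0.158 and 0.160. In both, as in Shroom1 to Shroom3, WT 1 stood above the other WT libraries. The myosin light chain Myl9 was at 324 ± 164 and 601 ± 41.0, and the actin polymerisation gene Evl at 1079 ± 146 and 790 ± 91.1.

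Targets and factors of SRF and its MRTF coactivators, the pathway that Mical2 feeds, had a median log2 difference of 0.54 over 21 tested genes. The median over all tested genes was -0.0046. By limma 0 were called, and 14 had an unadjusted p under 0.05 in the higher and 2 in the lower direction, against 14.7% and 9.68% of all tested genes. Of the factors, Srf was at 445 ± 27.0 for WT and 466 ± 17.9 for KO, Mrtfa at 998 ± 86.2 and 933 ± 61.5 and Mrtfb at 1407 ± 115 and 1155 ± 44.1 (SD, n = 3, limma adjusted p = 0.556, 0.5 and 0.158). Of the targets, the 3 with the smallest p are given first. The tropomyosin gene Tpm2 was at 505, 256 and 269 for WT and 670, 641 and 612 for KO. Fhl2 was at 178, 54 and 53 and 341, 281 and 214, and the calponin gene Cnn2 at 676, 457 and 456 and 831, 786 and 724. Tagln2, at 896 ± 61.7 and 774 ± 40.8, and Flna, at 5822 ± 302 and 5350 ± 145, were lower in KO without overlap. Of the 21 genes, 14 were higher and 3 lower in KO without overlap, against 16.1% and 13.4% of all tested genes. WT 1 stood above WT 2 and WT 3 in Tpm2, Fhl2 and Cnn2. The list's median was 0.14 against WT 1 alone and 0.77 without WT 1. Acta2, Tagln and Cnn1 in this list are also among the smooth muscle and pericyte markers, whose sums are given above, and the part of such cells in this median was not tested.

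**Figure D5:**
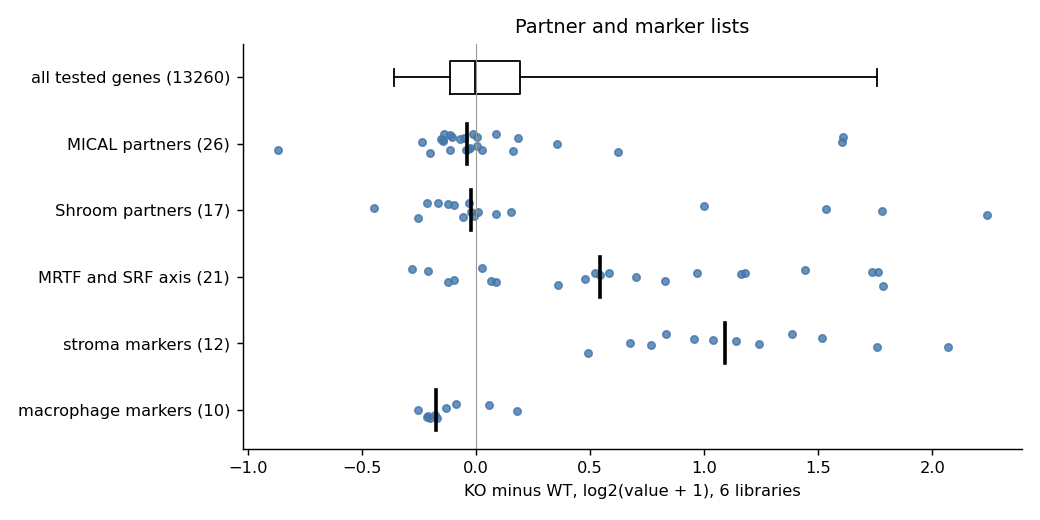
Differences between KO and WT on the log2(value + 1) scale (x axis) for the genes of each list; points are genes, vertical lines are medians, and the box for all 13260 tested genes shows the median, quartiles and 5th and 95th percentiles. The medians of the MICAL and Shroom partners lie at -0.038 and -0.020, and that of the MRTF and SRF axis at 0.54.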

How the data were processed

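Poly(A) RNA-seq from 6 libraries of cultured marrow macrophages (3 WT and 3 KO) was deposited as 1 table of 17313 genes, and each of its 6 value columns was matched to a library by its title. The submitters' processing notes list, without role or order, featureCounts 2.0.3, STAR 2.7.10a, DESeq2 1.36.0, Trimmomatic 0.39 and Picard 2.27.4, and the build mm10. The unit of the deposited values is not given in the labels, and they were handled as a score: totals were nearly equal and the value 6 never occurred in WT 2, the pattern that counts scaled per library and then rounded would leave. Raw depth is therefore not known, and no count model was fitted.

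Genes with at least 10 in at least 3 libraries (13260, among them all 9 members) entered a two-sided limma test (version 3.58.1, R 4.3.3, trend over intensity) of log2(value + 1) with group as its single term. Benjamini-Hochberg adjustment ran over all of them, with a threshold of 0.05. A difference on this scale understates the change of low genes. Exonic lengths came from GENCODE M21, in which 17297 identifiers were found, 99.1% with the same start and end. Each length is the union of all exons annotated to the gene, so levels per kb compared between genes depend on the annotation. The fit was tested on simulated data. Alternatives were other scalings (cyclic loess, upper quartile and an unweighted trimmed mean of log ratios), filters and pseudocounts, the replicate block, and other sets of libraries. The members and the lists of partners and markers were chosen with earlier results of these data known. Named genes were the members, Hdac2, Xist, Ddx3y, a set list of partners, up to 4 partners a list with the smallest p, the 5 genes most like Mical3 and Shroom4, and their nearest tested neighbours. Marker genes, Lum, Lepr, Micalcl, Smpd2, Tagln2 and Flna were named in addition. Replicate numbers were not treated as pairs. Some results of the named genes are not reported here.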

Additional observations from a re-analysis of the deposited data

How the results depend on the processing

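Of 17 alternatives, the one that made calls was the fit without WT 1. Leaving out each library in turn gave 0 to 2363 genes called in all, 0 to 5 of the paralogues, 0 to 4 MICAL partners, 0 to 5 Shroom partners and 0 to 14 genes of the MRTF and SRF axis. With all libraries 3230 genes had an unadjusted p under 0.05, and between 826 and 4349 did under the alternatives. Against WT 1 alone the median of the MRTF and SRF axis was 0.139, and Micall1 and Shroom2 turned direction, to 0.026 and -0.0021. Under cyclic loess the medians of the MICAL and Shroom partners were 0.026 and 0.051, against -0.038 and -0.020. The cause was not tested. Mical3 lay between 0.49 and 0.52 in 17 alternatives and Shroom4 between 1.48 and 2.26 in 16. A mean of at least 100 as the filter removed the 4 Shroom genes. With the replicate block 0 genes were called and 2744 had an unadjusted p under 0.05. Deviations of same-numbered libraries correlated across genes at 0.53, -0.36 and 0.02. The deviations were centred within groups of 3, which ties such correlations together, so they cannot settle whether the numbers pair libraries. WT 2 and KO 3 correlated at 0.62, and 961 genes were at least 0.8 (log2) lower there than in the others. Leaving out both, chosen after the data were seen, called 0 genes, with Mical3 at 0.52 and Shroom4 at 1.84. Rounded values near 1 limit Shroom1 and Shroom2, and 3 libraries a group limit every comparison.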
